A study of Mus musculus with 4 samples.

Results

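The full cyclic AMP response element (CRE), the 8 bp palindrome TGACGTCA, was looked for in every genomic element of a STARR-seq experiment in mouse Th17 cells. It was present at least once, as an exact match, in 590 of the 24217 elements that lie on chromosomes. The authors' deposited table lists 24232 elements in all, and the 15 on contigs were left out. The 590 elements held 625 palindromes, none shared between elements. They were split by distance: 360 had their centre within 1 kb of the TSS (transcription start site) of any protein-coding gene and are called promoter-proximal, and 230 lay farther away and are called distal. The rule for an element was the presence of the sequence and used no fold change.

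The 4 samples were biological replicates of 1 group: primary T cells of C57BL/6NJ mice, activated for 3 days towards the interleukin-17-producing (Th17) fate with antibodies to CD3e (0.25 µg/mL), CD28 (1 µg/mL), IL-4 (2 µg/mL) and IFN-gamma and with IL-6, and transiently transfected with the reporter library, which stayed episomal. STARR-seq places a genomic fragment inside the transcribed part of a reporter, so that RNA carrying the fragment, set against the input library, measures the activity of that fragment. The authors combined all replicates into 1 value per element, a log2 fold change with a q-value under 0.01 for every listed element, so no spread between replicates can be given and the depth is unknown. There was no untreated group, and the palindrome was not mutated in any sample.

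The files do not state the base or direction of the fold change. It was read as log2 of the reporter's RNA over its input, so that "higher" stands for a positive value and "lower" for a negative one; with the opposite direction the words would swap throughout. Intervals beside shares are exact (Clopper-Pearson) 95% binomial intervals, which cover counting error only, since elements are not replicates. Elements that did not pass the q-value threshold are not in the table, so every share is a share of listed elements.

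The CRE is bound by dimers of the basic leucine zipper (bZIP) proteins CREB, CREM and ATF1, and by other ATF and AP-1 family dimers. Protein kinase A, which is activated by cyclic AMP, phosphorylates CREB, which then recruits the coactivators CBP and p300; T cell receptor signalling also leads to CREB phosphorylation. The centre of the palindrome is a CpG, and methylation of that CpG is known to weaken CREB binding. In mammalian genomes many full palindromes lie in promoters with CpG islands, close to the TSS.

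The sites are shown first for distal elements, chosen because they are near genes of cyclic AMP signalling or of T cells or have very high values. Each line gives the nearest coding gene, the position on mm10 and the plus strand, with the palindrome in capitals and its surroundings in lower case.
Btrc, chr19:45419610-45419669: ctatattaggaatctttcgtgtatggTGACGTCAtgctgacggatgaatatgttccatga
Tmem161b, chr13:84378656-84378715: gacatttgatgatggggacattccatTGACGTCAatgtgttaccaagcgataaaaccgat
Pde4d, chr13:109822571-109822630: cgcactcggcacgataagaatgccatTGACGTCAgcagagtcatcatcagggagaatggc
Pde4d, chr13:109761196-109761225: acactatggccTGACGTCAgcagctagcta
Pde4b, chr4:102432238-102432297: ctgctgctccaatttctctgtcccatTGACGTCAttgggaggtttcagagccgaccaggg
Pde4b, chr4:102511063-102511122: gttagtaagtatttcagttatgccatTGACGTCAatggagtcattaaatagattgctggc
Akap13, chr7:75667192-75667251: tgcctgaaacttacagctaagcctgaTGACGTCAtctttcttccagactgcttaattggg
Hif1a, chr12:73888117-73888176: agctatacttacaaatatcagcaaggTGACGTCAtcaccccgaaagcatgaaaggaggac
Foxp3, chrX:7584119-7584178: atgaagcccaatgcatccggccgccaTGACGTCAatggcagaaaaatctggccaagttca

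These 9 sites share the palindrome, and none of the printed stretches is the same as another. Short runs beside the palindrome recur, such as ccat before it at Tmem161b, both Pde4b sites and the longer Pde4d stretch. The Btrc element had a log2 fold change of 4.35 and the Tmem161b element one of 4.25. The sites near Pde4d, Pde4b, Akap13, Hif1a and Foxp3 are described with their genes below.

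Promoter-proximal sites are shown from higher and lower elements, because the same 8 bases occurred in both. Some of these elements have extreme values, and others are near pathway or T cell genes described below. The 30-base stretches are cut short where the surroundings touch an annotated exon.
Shisa5, chr9:109054848-109054877: cttcctgctgcTGACGTCAggaatggggaa
Babam2, chr5:31698504-31698563: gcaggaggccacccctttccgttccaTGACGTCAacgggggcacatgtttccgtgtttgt
Trim26, chr17:36837033-36837092: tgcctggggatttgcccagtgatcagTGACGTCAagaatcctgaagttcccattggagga
Atp5d, chr10:80141366-80141425: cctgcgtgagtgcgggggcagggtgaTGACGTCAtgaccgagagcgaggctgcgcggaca
Rel, chr11:23771280-23771339: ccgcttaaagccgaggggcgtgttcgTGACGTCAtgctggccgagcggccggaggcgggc
Stat3, chr11:100939792-100939851: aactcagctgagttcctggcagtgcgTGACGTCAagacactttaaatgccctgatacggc
Nr4a2, chr2:57115052-57115111: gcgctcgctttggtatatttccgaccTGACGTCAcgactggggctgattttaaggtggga
Jund, chr8:70698709-70698768: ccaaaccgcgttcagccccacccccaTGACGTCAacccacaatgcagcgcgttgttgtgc
Pde7a, chr3:19311387-19311446: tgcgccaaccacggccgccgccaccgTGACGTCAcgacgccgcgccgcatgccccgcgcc
Cdc42, chr4:137357706-137357735: gggcacgcgccTGACGTCAgcacgcagggg
Phc1, chr6:122340569-122340598: acttaagtctgTGACGTCAgggttgattgt

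The first 6 of these elements were higher and the last 5 were lower. Shisa5, whose site lies at the TSS itself, had the highest value of the promoter-proximal elements at 4.39, and Phc1, a Polycomb subunit gene, the lowest at −4.23; the palindrome of Phc1 lay 23 bp upstream of its TSS.

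Distal elements with the palindrome were mostly higher. Of 230, 205 were higher (89.1%, interval 84.4 to 92.8), against 72.7% of the 14709 listed distal elements and 72.5% of those without the palindrome. Their median log2 fold change was 1.58, with quartiles of 1.04 and 2.26, and the values ran from −2.56 to 4.87. Over all listed distal elements the median was 1.16. The 205 higher elements had a median of 1.64, compared with 1.49 for the 10495 higher distal elements without the palindrome.

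Promoter-proximal elements with the palindrome were mostly lower, as promoter-proximal elements in general were. Of 360, 95 were higher (26.4%, interval 21.9 to 31.3), against 13.3% of the 9508 listed promoter-proximal elements and 12.7% of those without the palindrome. Their median log2 fold change was −0.996, with values from −4.23 to 4.39, and that of all listed promoter-proximal elements was −1.22. With both classes pooled, 300 of 590 were higher, or 50.8%, beside 49.4% of all listed elements: the pooled share hides opposite majorities. Around the 1 kb border, the members just inside it, near Ythdc2 and Id1, had −0.75 and −1.44, and those just outside, near Maoa and Brd2, had −0.95 and 0.86.

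**Figure D1:**
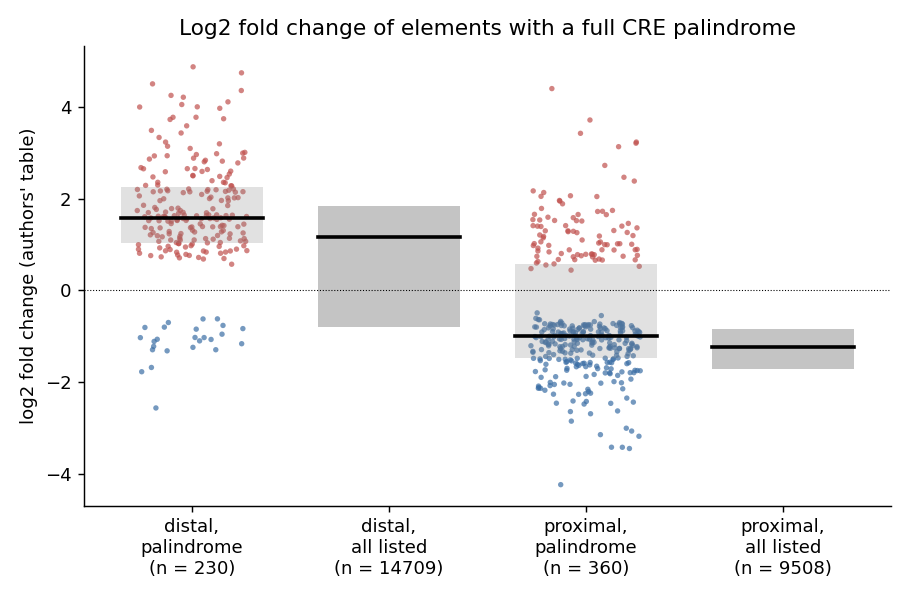
Log2 fold change from the authors' deposited table (y axis) for distal and promoter-proximal elements with the palindrome, each point an element, red where higher and blue where lower. Black lines are medians and grey bands run from the lower to the upper quartile, also for all listed elements of each class; the distal median with the palindrome is 1.58 and the promoter-proximal one −0.996.

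GC content moved strongly with direction in this table, so shares were read at matched GC. Members and other elements were compared within deciles of GC percent over all listed elements. In the 4 deciles of lowest GC all 128 distal members were higher, 23 of 23, 35 of 35, 36 of 36 and 34 of 34, whereas 85.8% of distal elements without the palindrome in these deciles were. The lowest GC of a lower distal member was 50.7%, so all 142 distal members below that value were higher by construction. Of the 9901 distal elements without the palindrome below it, 85% were higher. In decile 6, at 53.0 to 57.5% GC, 26 of 32 distal members were higher (81.2%) and 51.7% of the others; in decile 7, 11 of 16 were (68.8%) and 29.8% of the others. Weighted to the members' GC deciles, 69.8% of distal elements without the palindrome were higher, 19.4 percentage points under the members' 89.1%.

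At promoters the same comparison gave 11.5% for elements without the palindrome, 14.9 points under the members' 26.4%. In decile 7, at 57.5 to 61.9% GC, 39 of 82 members (47.6%) and 13.7% of the others were higher. Deciles 1 to 5 held few promoter-proximal members, among them 4 of 4 higher in decile 5 and 1 of 3 in decile 4, where 72.6% of the others were. In decile 10, above 69.0% GC, 3 of 51 members (5.88%) and 0.707% of the others were. Higher promoter-proximal members had a median GC of 60% and lower ones 65.2%. What GC itself contributes to the reporter measurement was not tested.

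**Figure D2:**
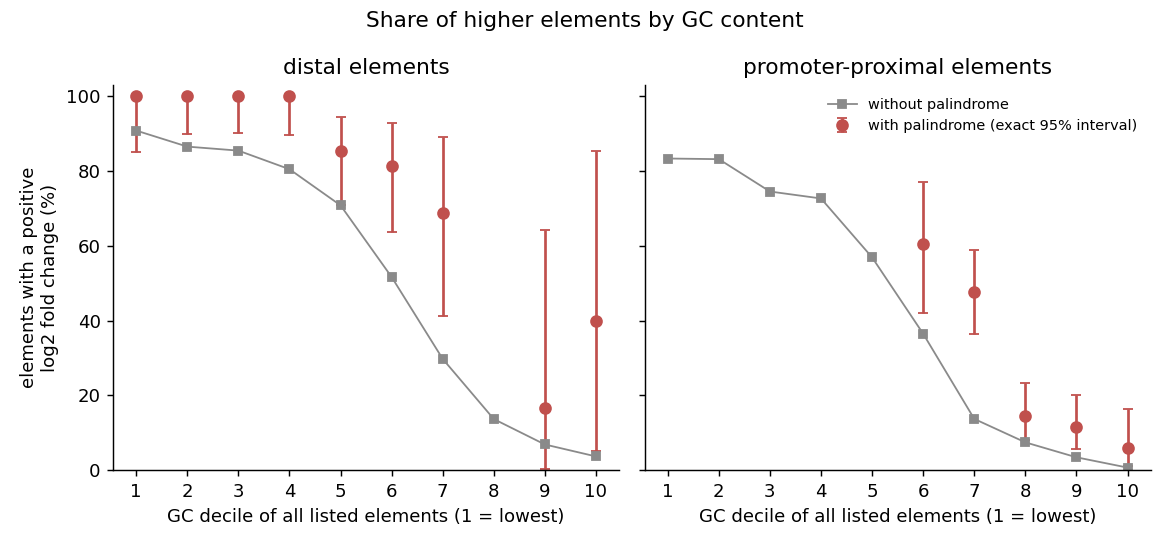
Percentage of elements with a positive log2 fold change (y axis) by GC decile of all listed elements (x axis), for distal (left) and promoter-proximal (right) elements; red points are elements with the palindrome, with exact 95% intervals, shown where a decile holds at least 5, and grey squares are elements without it. Red points lie above grey ones in each decile drawn, for example at 47.6% against 13.7% in decile 7 at promoters.

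The share of higher elements changed with the distance of the palindrome from the nearest coding TSS. Of 161 elements whose site lay within 50 bp, 36 were higher (22.4%, interval 16.2 to 29.6), and 13 of 65 were at 50 to 100 bp (20%). The share was 40.6% of 69 at 250 to 1000 bp, 70.8% of 24 at 1 to 5 kb and 91.2% of 68 at 5 to 20 kb. At 100 to 250 bp it was 17 of 63 (27.0%), at 20 to 100 kb 98 of 109 (89.9%) and over 100 kb 29 of 31 (93.5%). Elements without the palindrome, placed by their centre, had shares of 10.3 to 12.4% in the 3 classes up to 250 bp and 17.7% at 250 to 1000 bp. In the 4 farther classes, beginning with 1 to 5 kb, their shares were 57.5%, 68.1%, 76.1% and 87.1%. Up- and downstream sites had similar shares at 20 to 100 kb, 37 of 40 and 61 of 69. The sides differed more in some nearer classes with fewer elements. Upstream and downstream shares were 24.5% and 35.7% at 100 to 250 bp, 35.1% and 46.9% at 250 to 1000 bp, and 75% and 62.5% at 1 to 5 kb.

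**Figure D3:**
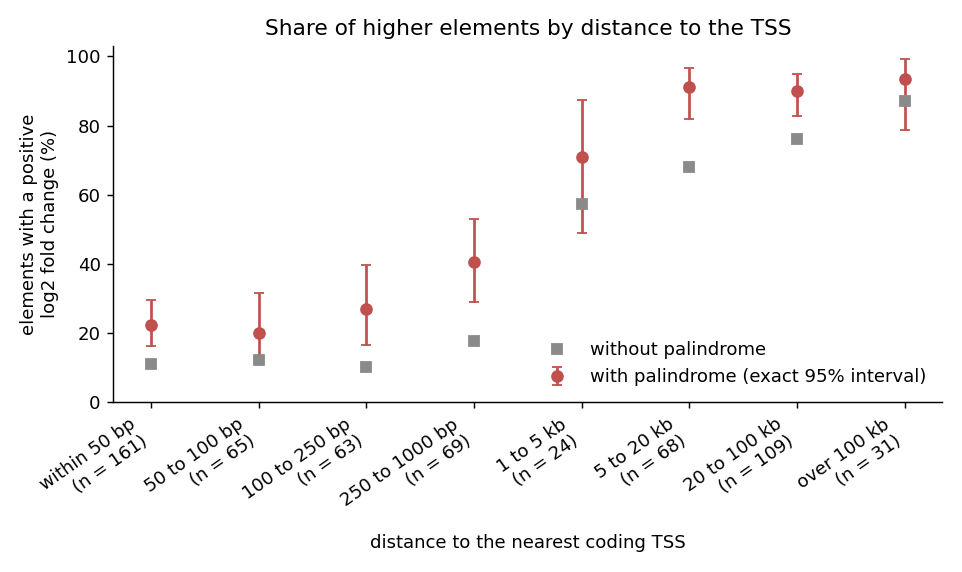
Percentage of elements with a positive log2 fold change (y axis) by distance to the nearest coding TSS (x axis, number of members in brackets); red points are elements with the palindrome, placed by the palindrome, with exact 95% intervals, and grey squares are elements without it, placed by their centre. The red points run from 22.4% within 50 bp to 93.5% over 100 kb and lie above the grey squares in all 8 classes.

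Within promoters the palindrome clustered just upstream of the TSS. Of the 360 promoter-proximal elements, 271 (75.3%) had it upstream and 213 (59.2%) within 150 bp upstream. Of those 213, 46 were higher (21.6%), and of the other 147, 49 were (33.3%). Higher and lower promoters had nearly the same median position, 35 and 37 bp upstream, but 66 of 95 higher (69.5%) and 223 of 265 lower elements (84.2%) had the site less than 250 bp from the TSS. Promoters with TSSs on both strands made up 13.6% of the promoter-proximal members and 7.85% of the others.

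**Figure D4:**
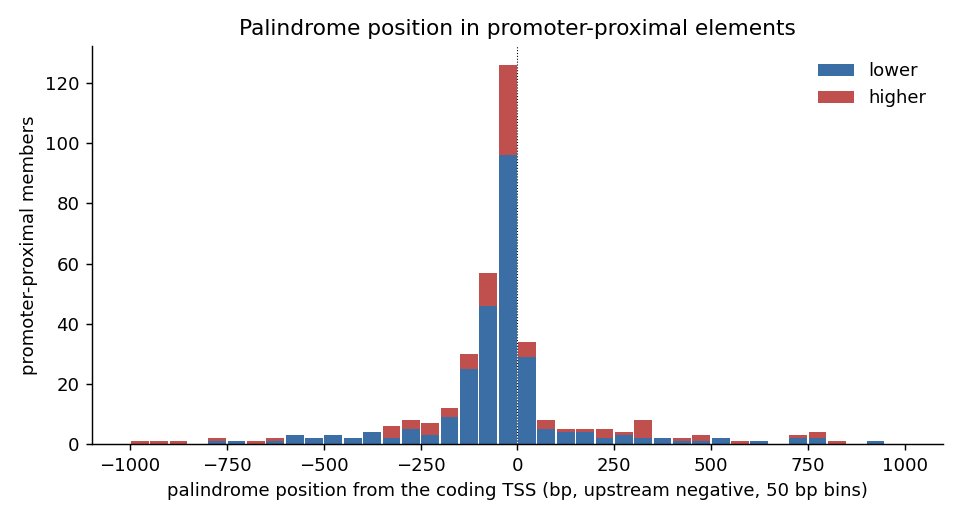
Number of promoter-proximal members (y axis) by position of the palindrome from the coding TSS in 50 bp bins (x axis, upstream negative), blue for lower and red for higher elements. The sites pile up just upstream of the TSS, with 213 of 360 in the 150 bp before it, and blue prevails there.

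By location of the element centre, distal members lay mostly in introns and between genes. Of 116 intronic ones 108 were higher (93.1%) and of 98 intergenic ones 83 (84.7%), beside 74.2% and 75.9% of all listed distal elements at these locations. At promoters, 26 of 72 intronic members were higher (36.1%) and 35 of 167 in untranslated or noncoding exons (20.96%), beside 18.5% and 10.9% of all listed promoter-proximal elements there.

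Palindromes were denser in the listed elements than in the genome as a whole. The chromosomes of GRCm38 held 5.48 exact palindromes per megabase, 14499 in all. Distal higher elements held 43.3 per megabase and distal lower ones 12.3. Promoter-proximal higher elements held 124 and promoter-proximal lower ones 42.8. Of 32851 RefSeq promoter windows of GRCm38, 588 (1.79%) held the palindrome, a density of 61 per megabase, above the 52.3 of all listed promoter-proximal elements; the windows are shorter and lie at the TSS.

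Compared with other 8 bp palindromes, TGACGTCA stood first among distal elements. With each of 212 palindromes that occur in at least 20 distal elements set against other distal elements of the same GC deciles, its excess of 19.4 points ranked 1; the next, GACATGTC, had 14.4. By the share of higher elements alone it ranked 6 of 212, and 1 of the 44 with a CpG at the centre. At promoters its excess of 14.9 points ranked 2 of 214 and 1 of 55 with a central CpG.

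Elements with a variant that differs from the palindrome by 1 base fell into 12 substitution classes, and the distal excess was below that of the exact site in 11 of them. Positions count from 1 at the 5′ end of TGACGTCA, the reverse complement is pooled with each variant, and elements with the exact palindrome were left out. In distal elements TGACGTAA (C7A), whose changed side resembles the site of PAR bZIP and C/EBP proteins, was in 116 elements, of which 115 were higher (99.1%, interval 95.3 to 99.98), an excess of 21.3 points at matched GC. TGACGACA (T6A) followed the exact site with 86 of 93 higher (92.5%) and 18.8 points. The lowest were TGACGTCC (A8C), with 39 of 57 higher (68.4%) and 5.32 points, and TGACTTCA (G5T), with 494 of 587 (84.2%) and 5.07 points. TGACATCA (G5A), which has no CpG, was in 850 distal elements, of which 90% were higher, with 12.3 points.

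At promoters TGACGTCT (A8T), the exact site and C7A had excesses of 14.9, 14.9 and 14.6 points. Of 138 promoter-proximal elements with A8C, 16 were higher (11.6%), an excess of 1.09 points. G5T gave 40 of 185 (21.6%), no excess. The intervals of the shares overlap among the leading 3 classes, 21.4 to 37.9% for A8T, 21.9 to 31.3% for the exact site and 21.5 to 41.3% for C7A.

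The AP-1 site, TGACTCA or TGAGTCA, lacks 1 of the central bases of the CRE and is bound by Fos, Jun and BATF dimers, which are abundant in activated T cells. All 74 distal elements with both sites were higher (interval 95.1 to 100). With the palindrome and no AP-1 site 131 of 156 were (84.0%), so all 25 lower distal members lacked AP-1. With AP-1 and no palindrome 87.7% of 5388 distal elements were higher, and with neither 63.4% of 9091. Set against elements with neither at matched GC, the excess was 30.7 points with both, 22.8 with the palindrome and 14.9 with AP-1. At promoters 15 of 39 with both (38.5%), 80 of 321 with the palindrome (24.9%) and 300 of 890 with AP-1 (33.7%) were higher, beside 10.5% with neither; the excesses were 24.4, 15.0 and 12.1 points.

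Other motifs in the same elements, searched on both strands, moved with GC to different degrees. The GC box GGGCGG, bound by SP and KLF proteins, was in 56 distal members, of which 35 were higher (62.5%), and 170 of the 174 without it were (97.7%); median GC was 56.2% and 47.1%. At promoters 80 of 326 with the box (24.5%) and 15 of 34 without it (44.1%) were higher. The YY1 site AAGATGGCG was in 11 distal members, all higher, and in 26 promoter-proximal members, of which 11 were (42.3%). Distal elements with this site and no palindrome were higher in 89.2% and distal members without it in 88.6%. At promoters these shares were 23.1% and 25.1%. The 11 distal members with the YY1 site had a median GC of 50.15%, as had the 11 copies of a repeat described below. How far these sets overlap is not given here. The site of interferon regulatory factors was in 31 promoter-proximal members, and 16 were higher (51.6%), where 39.2% of such promoters without the palindrome were. Promoter-proximal members with this site had a median GC of 58.2% and those without it 63.9%. A further TGACG outside the palindrome was in 231 promoter-proximal members, 70 of them higher (30.3%), beside 25 of the 129 without (19.4%); its share in distal members was 87.5% with and 90% without.

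A repeated palindrome in the same element was rare and is shown for 5 elements in which the sites lie close together, from the opening of the earliest palindrome to the end of the last.
Atp6v0c, chr17:24169109-24169127: TGACGTCAgagTGACGTCA
Prr7, chr13:55471636-55471659: TGACGTCAtccctgggTGACGTCA
Csnk1g2, chr10:80622035-80622063: TGACGTCAggtggcgagacagTGACGTCA
Braf, chr6:39725537-39725562: TGACGTCAcctgggtgcgTGACGTCA
Heca, chr10:17948177-17948220: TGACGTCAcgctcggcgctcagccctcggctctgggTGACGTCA

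The sites start 11 bp apart in the Atp6v0c element, 16 bp in Prr7, 21 bp in Csnk1g2, 18 bp in Braf and 36 bp in Heca. The elements near Atp6v0c, Prr7 and Csnk1g2 were higher, at 1.36, 1.45 and 1.54, and those of Braf and Heca were lower, at −1.62 and −1.57. In all, 31 elements held more than 1 palindrome: all 7 distal ones were higher, and 11 of 24 promoter-proximal ones (45.8%, interval 25.6 to 67.2), compared with 84 of 336 (25%) with 1. These counts do not mean that the palindromes shared a reporter fragment. The labels give a size range of 200 to 400, read as bp, and in some elements the sites started farther apart, as in Ogdh (1080 bp) and Vmac (607 bp). The most palindromes in an element were 4, in Map1lc3a, an autophagy gene, at −2.26, and in Csf2ra, a cytokine receptor gene, at 1.17.

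The bases next to the palindrome also went with direction. At promoters the symmetric site GTGACGTCAC was common, 92 of 360, and 12 of the 92 were higher (13.0%, interval 6.92 to 21.7). The symmetric ATGACGTCAT, which JUN and ATF dimers are known to bind, was in 13 promoters, of which 6 were higher (46.2%, interval 19.2 to 74.9). This was not particular to that form: CTGACGTCAA also had 6 of 13 and GTGACGTCAA 9 of 22 (40.9%). The remaining forms ran from 0 of 2 (TTGACGTCAA) to 8 of 22 (ATGACGTCAG). At promoters, median GC was 65.0% with GTGACGTCAC and 62.5% with ATGACGTCAT. In distal elements GTGACGTCAC had 13 of 17 higher (76.5%) and GTGACGTCAA 22 of 22, with a median of 2.99. Among these distal elements, median GC was 55.2% with GTGACGTCAC and 49.3% with GTGACGTCAA.

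The GTGACGTCAA class was in part a repeat. In all, 11 distal members shared a window of 60 bases around the palindrome, with at most 5 differences in the 52 flanking positions and none in 6 of them; this was noticed after the values were seen. They were near Cnot2 (4.87), Adk (4.74), Fam32a (4.50), Slc36a1 (4.11), Hfe2 (4.05), Litaf (4.00), Ccl17 (3.72), 2010111I01Rik (3.58), Rpl9-ps6 (3.09), Ap1m1 (2.88) and Bex6 (2.67), on 8 chromosomes, and 6 of the 10 highest distal members were among them. Repeat families are not annotated in the files used, and the median soft-masked share of these elements was 70.3%. Without them GTGACGTCAA was in 11 distal members, all higher, with a median of 1.74, and the share of higher elements over all distal members was 194 of 219 (88.6%) with a median of 1.56.

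A further 35 listed elements held a more distant version of the window, with 7 to 12 differences in the 52 flanking positions and no exact palindrome there. Windows were compared, without gaps, to the one most common among members. In 31 of them the site read TGAACGTCA, the palindrome with an A inserted. All 35 were higher, from 1.33 to 3.44, with a median of 2.14, whereas the 11 copies with the palindrome had a median of 4.00 and a range of 2.67 to 4.87. Every copy without the palindrome thus differed more in its flanks than any copy with it, so palindrome and flanks cannot be told apart here. Reads from such repeats can also be hard to place, and the part of that in these values was not tested.

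**Figure D5:**
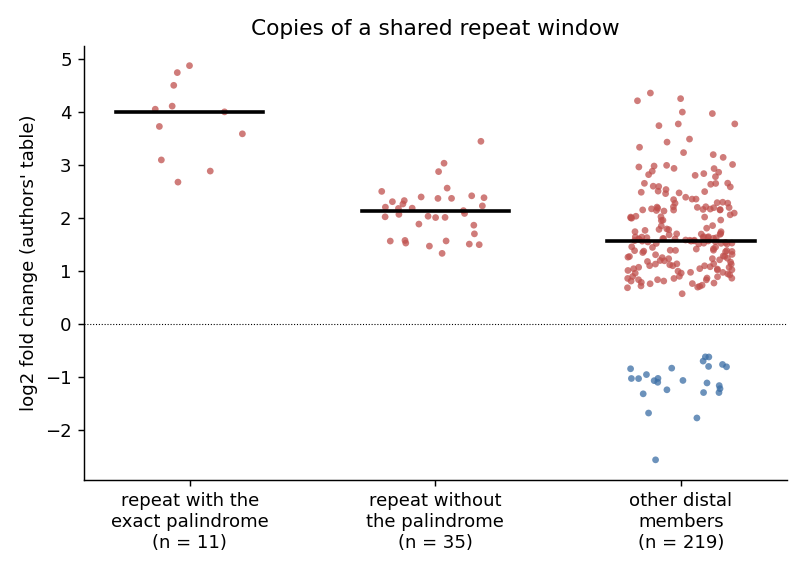
Log2 fold change from the authors' deposited table (y axis) of the 11 copies of a shared repeat window with the exact palindrome, the 35 copies without it and the other 219 distal members; points are elements, red where higher and blue where lower, and black lines are medians. The copies with the palindrome have a median of 4.00, those without it, which also differ more in their flanks, 2.14 and the other distal members 1.56.

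In higher distal elements the palindrome lay close to the element centre. Its median distance from the centre was 62.5 bp in the 205 higher distal elements, or 28.9% of the distance from centre to edge, and 196 bp in the 25 lower ones, or 47.2%. It was in the inner 50% of the element in 71.7% of the higher and 52.0% of the lower ones. At promoters the inner shares were 66.3% and 65.7%.

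The remaining top distal members were near Btrc (4.35), a ubiquitin ligase subunit gene, Tmem161b (4.25) and Sugct (4.21). The lowest distal members, near Foxe1 (−2.56), Arid1b (−1.77), Nacc2 (−1.68), Ski (−1.32), Rgs6 (−1.29), Rab11fip4 (−1.29), Nemf (−1.24) and Kcne1 (−1.22), had between 51.3% (Rgs6) and 69.6% GC (Foxe1). The elements near Foxe1 and Arid1b (66.8%) were above the median of 64.7% GC of listed promoter-proximal elements, although they lie over 1 kb from a coding TSS. In the promoter-proximal class Shisa5 was followed by Crem (3.71), Babam2 (3.42), Epb41 (3.23), Trim26 (3.21), Atp5d (3.13), Zbtb21 (2.72) and Lmbrd1 (2.46). Phc1 at the other end was followed by Bend6 (−3.44), Baz2b (−3.42), Cdc42 (−3.42), Gnao1 (−3.18), Zranb1 (−3.14), March7 (−3.06) and Pde7a (−3.00). Epb41 also had a member at another promoter, at −1.04, so the same gene held a higher and a lower site.

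Genes of the pathway were then taken from lists, each element being assigned to the nearest coding TSS within 100 kb, which does not show that it acts on that gene. Among all such elements 559 of 22068 (2.53%) held the palindrome. The lists below, in order, had 21, 23, 41 and 51 genes with such an element. Of all 11543 genes with such an element, 550 (4.76%) had a member. Of 27 genes for bZIP factors and coactivators 3 had one, and all 3 elements were higher, beside 49.2% of the list's 63 listed elements of both classes. Crem, which encodes the activators and repressors that themselves bind the CRE, had 2 palindromes, the nearer 4 bp upstream of a TSS, and a value of 3.71 (q = 1.3e-14 in the authors' deposited table). Nfil3, the gene of a bZIP repressor that limits the Th17 fate, had a distal site at 1.27, and Cebpb a distal element with 2 palindromes at 0.96. Listed elements without the palindrome reached 0.95 for Crem, 2.10 for Nfil3 and 1.72 for Cebpb.

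Of 23 genes of cyclic AMP signalling and feedback, 6 had 8 members, 6 of them higher, beside 62.7% of the list's 110 listed elements of both classes. All 5 distal ones were higher, as were 89.1% of all distal members; they were near genes that degrade or organise the signal. Pde4d and Pde4b encode phosphodiesterases that break down cyclic AMP, and each had 2 distal sites. The Pde4d elements had values of 3.43 (q = 1.61e-21 in the authors' deposited table) and 2.47, and the Pde4b elements 2.34 and 1.19. Akap13, a scaffold of protein kinase A, had an intronic site at 3.00. Listed elements without the palindrome reached similar values, 3.41 for Pde4d, 2.97 for Pde4b and 3.13 for Akap13. Of the 3 promoters, Sik1, a kinase that restrains the CREB coactivators, was higher at 0.86. Prkar1a, the regulatory subunit of protein kinase A, had −1.31 and Pde7a, another phosphodiesterase, −3.00; their elements had 76.0% and 75.7% GC.

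Of 50 genes known as CREB or ATF targets 6 had a member within 100 kb, each at a promoter, and 1 was higher. Of all promoter-proximal members 26.4% were, and of all listed promoter-proximal elements 13.3%. Beyond the 100 kb limit, Ppargc1a, also on this list, was nearest to a higher distal member at 2.63. Ldha, lactate dehydrogenase, had 1.21. The lower ones were Nr4a2 (−1.63) and Jund (−1.30), transcription factor genes, Dusp1 (−0.99), a phosphatase of MAP kinases, the cyclin gene Ccna2 (−0.91) and Btg2 (−0.72), which restrains cell growth. The site lay 43 bp upstream of the TSS in Ldha and 44 bp upstream in Nr4a2. Nearly the same position thus went with a higher element at 63.7% GC and a lower one at 65.4% GC.

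Of 52 T cell genes 8 had a member, of which 6 were higher, beside 67.2% of the list's 262 listed elements of both classes. All 4 distal ones were, beside the same 89.1%: Lef1 (2.83), Hif1a (2.29), Foxp3 (1.70) and Il2ra (1.03). The highest listed element without the palindrome was at 1.28 for Lef1, 2.70 for Hif1a and 2.85 for Il2ra, and Foxp3 had no other. Foxp3 is the defining factor of regulatory T cells. Its site lay at −2124 bp from the nearest annotated coding TSS, upstream of it. Every coding transcript start counted as a TSS, so this does not place the site outside the gene. Hif1a encodes a factor that promotes the Th17 fate, and Il2ra the IL-2 receptor alpha chain. Of the promoters, Rel (1.88), an NF-κB subunit, and Stat3 (1.26), which transmits the IL-6 signal, were higher. Bach2 (−1.57) and Maf (−1.48) were lower. Listed elements without the palindrome reached 1.31 for Rel, 2.60 for Stat3, 3.18 for Bach2 and 3.06 for Maf. No gene for IL-17 itself was among those with a member. Smad7, also on this list, was nearest to a higher distal member at 3.965, beyond the 100 kb limit.

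Copies and neighbours touched few of these values. Among them 4 members, near Fam32a, Zfp119a, Zfp959 and Zfp119b, had a near-identical copy elsewhere in the genome, and all 4 were higher. In 25 members a palindrome lay in soft-masked repeat sequence: 17 of the 18 distal ones and 2 of the 7 promoter-proximal ones were higher.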

How the data were processed

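Per the file headers and labels, the authors derived 1 table of elements from the alignments of 4 biological replicates on mm10; it holds the authors' log2 fold change, p-value and q-value per element and its length, whose unit was read as bp. Not given in the sources used here are the aligner and the caller of elements. All 24232 deposited q-values are under 0.01. Neither counts nor replicate values were analysed, and the depth per sample is unknown.

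Sequences came from GRCm38, whose chromosomes contain every listed element, and TSSs from GENCODE M21. Elements were placed by their centre, palindromes by their own position. Shares were computed with scipy 1.17.1, standardised to GC deciles, and tested on simulated data. Copies were found with minimap2 2.31 (k of 19, w of 10, at least 95% identity over 90% of the element). Sites within 10 kb formed a chain for an alternative. No test between groups was possible. Named genes were the 8 highest and 8 lowest members of each class, members with at least 3 palindromes, and list genes with a member. The members and lists were chosen with earlier results of these data known. Exceptions chosen after values were seen are the members nearest the 1 kb border, those with near-identical copies, the repeat copies and Epb41's lower promoter. Further exceptions are the elements given for closely or widely spaced sites and the list genes beyond 100 kb.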

Additional observations from a re-analysis of the deposited data

How the results depend on the processing

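Higher stayed the majority among distal members and lower among promoter-proximal members under each alternative run: over 33 settings the distal share lay between 84.0% and 93.3%, and over 32 settings the promoter-proximal share lay between 24.6% and 30.5%. No median changed sign. Values beyond the interval of the reported one were as follows. With a q-value under 0.001 the distal share was 93.3% and the promoter-proximal median −1.07. With elements of absolute log2 fold change 1 or more alone the medians were 1.70 distal and −1.27 promoter-proximal, which a filter on size moves by its construction. Without members that hold an AP-1 site the distal share was 84.0%. With TSSs of every biotype the share was 88.6% at 1 to 5 kb and 100% over 100 kb, the latter from 2 elements. Leaving out each chromosome gave distal shares of 88.2 to 90% and promoter-proximal ones of 25 to 27.5%. GC classes of other width or joined with length or distance gave 69.0 to 70.1% and 11.2 to 11.6% for elements without the palindrome. Settings without the repeat copies, without near-identical copies and with distance strata were chosen after seeing the data. Leaving out replicates could not be run, because the table gives no values per replicate. No paired analysis was possible because there is 1 group and the result comes from no test. Depth is unknown, so its limit on these values cannot be given.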
